A study of Mus musculus with 32 samples.

Results

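Interferon-stimulated genes were followed in thymocytes of irradiated mice as a set of 32 named genes, all of which were measured, out of 28784 gene names on the array. The members were the probes whose deposited gene name was on the list. The names of the array design gave 28 members directly, with the older names Irgm for Irgm1 and Tgtp for Tgtp1. Irf9, Gbp3, Dhx58 and Cmpk2 were found by their RefSeq accession under the array names Isgf3g, Gbp4, D11Lgp2e and Tyki. The set held 52 probes. Each member's probe was well above background on all 32 arrays, and no member value was missing, so all 32 passed the filter on dim probes.

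The series asks whether the 2 protein variants of p53 at codon 72 differ in their response to radiation, with attention to immunity and inflammation. Thymocytes came from 6-week-old C57Bl/6 mice that were untreated (0 h) or had received 5 Gy of gamma radiation 2 or 4 h earlier. P72 mice carry proline at codon 72 and R72 mice arginine, with 4 arrays per genotype and time, each a pool of 2 mice from an independent experiment. For p53-/- mice, and likewise for p53+/+ mice, there were 2 untreated arrays, 1 array at 2 h and 1 at 4 h. How the P72 and R72 alleles were made is not given in the sources used here. Whether the untreated arrays within p53-/- or within p53+/+ came from different pools is not stated in the labels. Their member levels lay close together, with a median absolute difference of 0.06 for p53-/- and 0.08 for p53+/+ on the log2 scale, against 0.14 to 0.42 between the P72 arrays at 0 h.

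Type I interferons bind the receptor of Ifnar1 and Ifnar2, whose kinases Jak1 and Tyk2 phosphorylate STAT proteins, Stat2 among them. With Irf9 these form the complex ISGF3, which binds a repeat of GAAA in the promoters of antiviral genes. Interferon gamma acts at another promoter element, called GAS, and is the main inducer of the guanylate-binding and immunity-related GTPases. In the thymus such genes are also expressed without infection, where interferon from epithelium and dendritic cells acts on developing T cells.

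Levels are given as the log2 signal of a gene's probe minus the 75th percentile of its array, so that 0 is the 75th percentile. That percentile was 268 to 1031 fluorescence units, and the share of probes well above background was 52.2% to 71.2%. Correlations between replicate arrays over all genes ranged from 0.974 to 0.995. All 10 markers of double positive thymocytes, among them Rag1, Rag2 and Cd8a, were well above background in every group, and their summed level was 751 to 1142 times the 75th percentile over the P72 and R72 arrays. Of 6 genes used as a check on p53, Cdkn1a, Mdm2, Bbc3, Bax and Phlda3 rose in irradiated P72, R72 and p53+/+ thymocytes and none of them rose past the threshold in p53-/- thymocytes. The sixth, Trp53 itself, does not check the labels because where its probes lie relative to the deleted part is not given in the sources used here. Changes are contrasts of group means in limma, adjusted by Benjamini-Hochberg over the 20540 to 20548 genes tested, with a threshold of 0.05 and ± for the standard error.

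Promoter sequence was available for 24 members in RefSeq, build GRCm38.p6, and 250 bases before each start were searched on both strands. The letters GAAANNGAA, the core of the element bound by ISGF3 and by interferon regulatory factors, were present for 14 of the 24 members (58.3%), against 8.18% of 27025 genes. The GAS letters TTCNNNGAA were present for 5 of the 24 (20.8%), against 8.13% of all genes. Of the 14 members with a promoter that rose in P72 thymocytes at 4 h, 11 held GAAANNGAA and 7 held it at least 2 times. Irf7, Irf9 and Oasl1 rose without a match. Of the 9 that were not called, 3 held it, namely Oas3, Rsad2 and Stat2, and the only member that fell, Ifit2, did not. A match describes letters in a window and not a bound site, and its absence says only that these letters are not in that window. Matches of GAAANNGAA can overlap each other, as in Isg15, and in Bst2 alone among the members a match overlapped one of TTCNNNGAA.

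The 120 bases shown for 5 members are examples, from 3 genes that rose late through Gbp3, which rose early, to Ifit2, which fell. They leave out the members named above that rose without a match or held a match without being called. They run 5′ to 3′ on the strand of the gene, with GAAANNGAA or its reverse complement in capitals. Ifit1 is at chr19:34640769-34640888, Ifit3 at chr19:34583344-34583463 and Ifit2 at chr19:34550574-34550693, all on the plus strand, Isg15 is at chr4:156200819-156200938 on the minus strand, and Gbp3 is at chr3:142559924-142560043 on the plus strand. Gbp3 and Ifit2 have 2 annotated starts each, and the window before the upstream start is shown.
Ifit1: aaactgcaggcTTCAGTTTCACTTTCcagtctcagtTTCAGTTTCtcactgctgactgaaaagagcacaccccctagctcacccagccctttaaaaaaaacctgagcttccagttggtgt
Ifit3: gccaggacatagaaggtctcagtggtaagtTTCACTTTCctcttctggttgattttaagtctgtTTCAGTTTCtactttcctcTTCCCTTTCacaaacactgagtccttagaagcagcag
Isg15: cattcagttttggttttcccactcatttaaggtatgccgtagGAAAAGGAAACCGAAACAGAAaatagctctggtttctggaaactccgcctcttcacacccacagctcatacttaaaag
Gbp3: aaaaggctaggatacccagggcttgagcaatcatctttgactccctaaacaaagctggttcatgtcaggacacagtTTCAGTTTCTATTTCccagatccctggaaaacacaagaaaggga
Ifit2: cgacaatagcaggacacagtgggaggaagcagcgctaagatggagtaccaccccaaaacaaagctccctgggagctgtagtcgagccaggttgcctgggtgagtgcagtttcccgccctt
The first match begins 109 bases before the start in Ifit1, 155 in Ifit3, 78 in Isg15 and 44 in Gbp3. Ifit1, Ifit3 and Isg15 hold 3 matches each and Gbp3 holds 2.

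In P72 thymocytes 20 of the 32 members rose by 4 h and 1 fell, and in R72 thymocytes 14 rose and none fell. With normexp background correction these counts were 11 and 0 in P72, and 3 and 0 in R72. After that correction the array median was 601 on R72 replicate 2 at 0 h and 331 on R72 replicate 2 at 4 h. It was 208 on P72 replicate 2 at 4 h, and 86.1 to 147 on the remaining arrays. Whether these medians account for the lower counts was not tested. The largest changes in P72 were those of Mx2, Iigp1, Mx1 and Gbp3, each over 2-fold. In these bulk samples, fewer cells of a type and less RNA per cell cannot be told apart. Many other genes also moved at that time. Over all genes tested, 35.8% rose and 20.8% fell in P72, and 28.9% rose and 16% fell in R72. The members' median change was 0.56 in P72 and 0.34 in R72, beside 0.11 and 0.09 over all genes. All 14 members called in R72 were among the 20 called in P72, which is 100% of the R72 list and 70% of the P72 list. Ifit3, Irf7, Irgm1, Oas1a, Oasl1 and Tgtp1 passed the threshold in P72 and did not pass it in R72, a difference that was not itself called for any of them.

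These directions depend on the scale. When arrays were centred on their median instead of the 75th percentile, all genes shifted at 4 h by a median of -0.62 in P72 and -0.48 in R72, and 4 members were then higher and 8 lower in P72, and 2 higher and 6 lower in R72. Mx1, Mx2, Gbp3 and Iigp1 still rose in P72 on that scale, and Mx2 and Gbp3 in R72, while 9 of the 20 that rose in P72 turned negative. The shift of all genes was -0.21 in P72 and -0.12 in R72 at 2 h, where 3 members were then higher and 1 lower in P72 and 1 higher and 1 lower in R72. Quantile normalization and the authors' deposited value table kept the direction of every called member value. Each rise given below is a rise relative to the 75th percentile of the array.

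**Figure D1:**
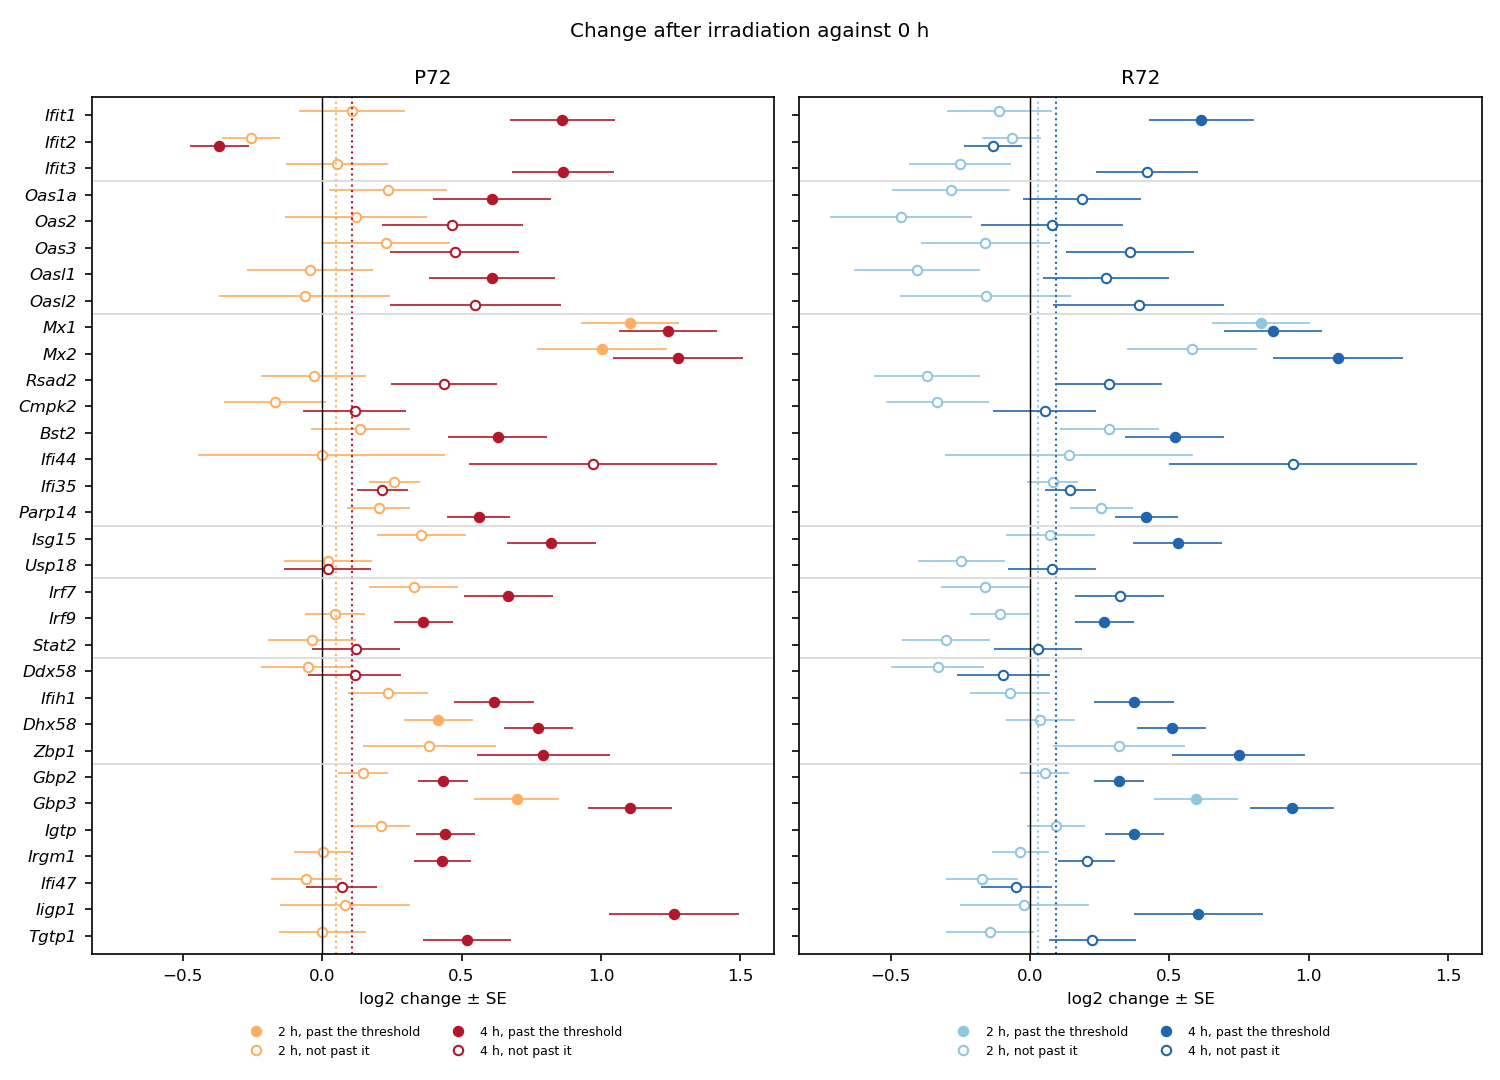
Log2 change ± SE of the 32 members at 2 h and 4 h against 0 h in P72 and R72 thymocytes, 4 arrays per group, grouped by role, with filled points past the limma threshold and dotted lines at the median of all genes. Most 4 h points lie right of zero and right of the 2 h points on the 75th percentile scale. With arrays centred on their median, 9 of the 20 rises in P72 and 5 of the 14 in R72 turn negative.

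At 2 h 4 members had risen in P72 and 2 in R72, and none had fallen. Over all genes 9.64% rose and 4.88% fell in P72, and 6.24% rose and 6.79% fell in R72, so the number of members that rose by 2 h was near that of genes in general. The median change of the members was 0.11 in P72 and -0.09 in R72, beside 0.05 and 0.03 over all genes. The 4 genes in P72 were Mx1, Mx2, Gbp3 and Dhx58, and the 2 in R72 were Mx1 and Gbp3. Between 2 h and 4 h 14 members rose in P72, where 21.5% of all genes rose and 10.7% fell, and 10 rose in R72, where 16.1% rose and 4.95% fell. Mx1 and Mx2 were not among either of these. On the median scale 1 member was higher and 3 lower at this step in P72, and 0 higher and 1 lower in R72, with shifts of all genes of -0.41 and -0.36. The later step rested on few arrays. It held 7 to 9 members in P72 when replicate 2, 3 or 4 of either time was left out. In R72 it held 2 without replicate 1 at 4 h, 3 without replicate 2 at 4 h, 5 without replicate 2 at 2 h and 4 without replicate 3 at 2 h.

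Mx1 and Mx2 belong to a family of dynamin-like GTPases of antiviral defence, and the Mx1 allele of C57BL/6 mice carries a deletion that leaves no working protein. Whether these mice make a working Mx2 protein is not given in the sources used here. Mx1 read -3.53, -2.90, -3.12 and -3.23 on the 4 P72 arrays at 0 h, -2.21, -1.91, -1.94 and -2.31 at 2 h, and -2.03, -1.89, -1.97 and -1.92 at 4 h. In R72 it read -2.55, -3.16, -2.76 and -3.14 at 0 h, -1.70, -2.52, -2.12 and -1.95 at 2 h, and -1.75, -1.96, -2.34 and -2.08 at 4 h. Every irradiated array was above every 0 h array of its genotype. Mx1 rose by 1.10 ± 0.18 at 2 h (adjusted p = 0.000224) and by 1.24 ± 0.18 at 4 h (adjusted p = 8.31e-06) in P72, a 2.36-fold rise. In R72 it rose by 0.83 ± 0.18 (adjusted p = 0.00363) and 0.87 ± 0.18 (adjusted p = 0.000485). A second Mx1 probe gave 1.10 at 2 h and 1.15 at 4 h in P72.

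Mx2 read -0.11, 0.34, -0.11 and -0.19 in P72 at 0 h, 1.20, 0.99, 0.78 and 0.96 at 2 h, and 1.40, 1.36, 1.23 and 1.03 at 4 h. The R72 arrays read 0.95, -0.10, 0.12 and -0.53 at 0 h, 0.98, 0.66, 0.44 and 0.68 at 2 h, and 1.55, 1.56, 0.89 and 0.86 at 4 h. The P72 times did not overlap with 0 h, whereas the first R72 array at 0 h lay above 2 of the 4 R72 arrays at 4 h. Mx2 rose 2.42-fold in P72 at 4 h (1.28 ± 0.23, adjusted p = 0.000128) and 2.15-fold in R72 (1.11 ± 0.23, adjusted p = 0.000767). Among the other antiviral effectors Bst2, a membrane tether that holds budding virions, and Parp14, an ADP-ribosyltransferase, rose in both genotypes. Bst2 changed by 0.63 ± 0.18 in P72 and 0.52 ± 0.18 in R72, and Parp14 by 0.56 ± 0.11 and 0.42 ± 0.11. Rsad2 (viperin), Cmpk2, Ifi44 and Ifi35 did not pass the threshold at 4 h in either, with Ifi44 at 0.97 ± 0.45 in P72 and 0.94 ± 0.45 in R72. A second, dimmer Ifi44 probe did pass it, at 1.00 in P72 and 0.82 in R72.

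**Figure D2:**
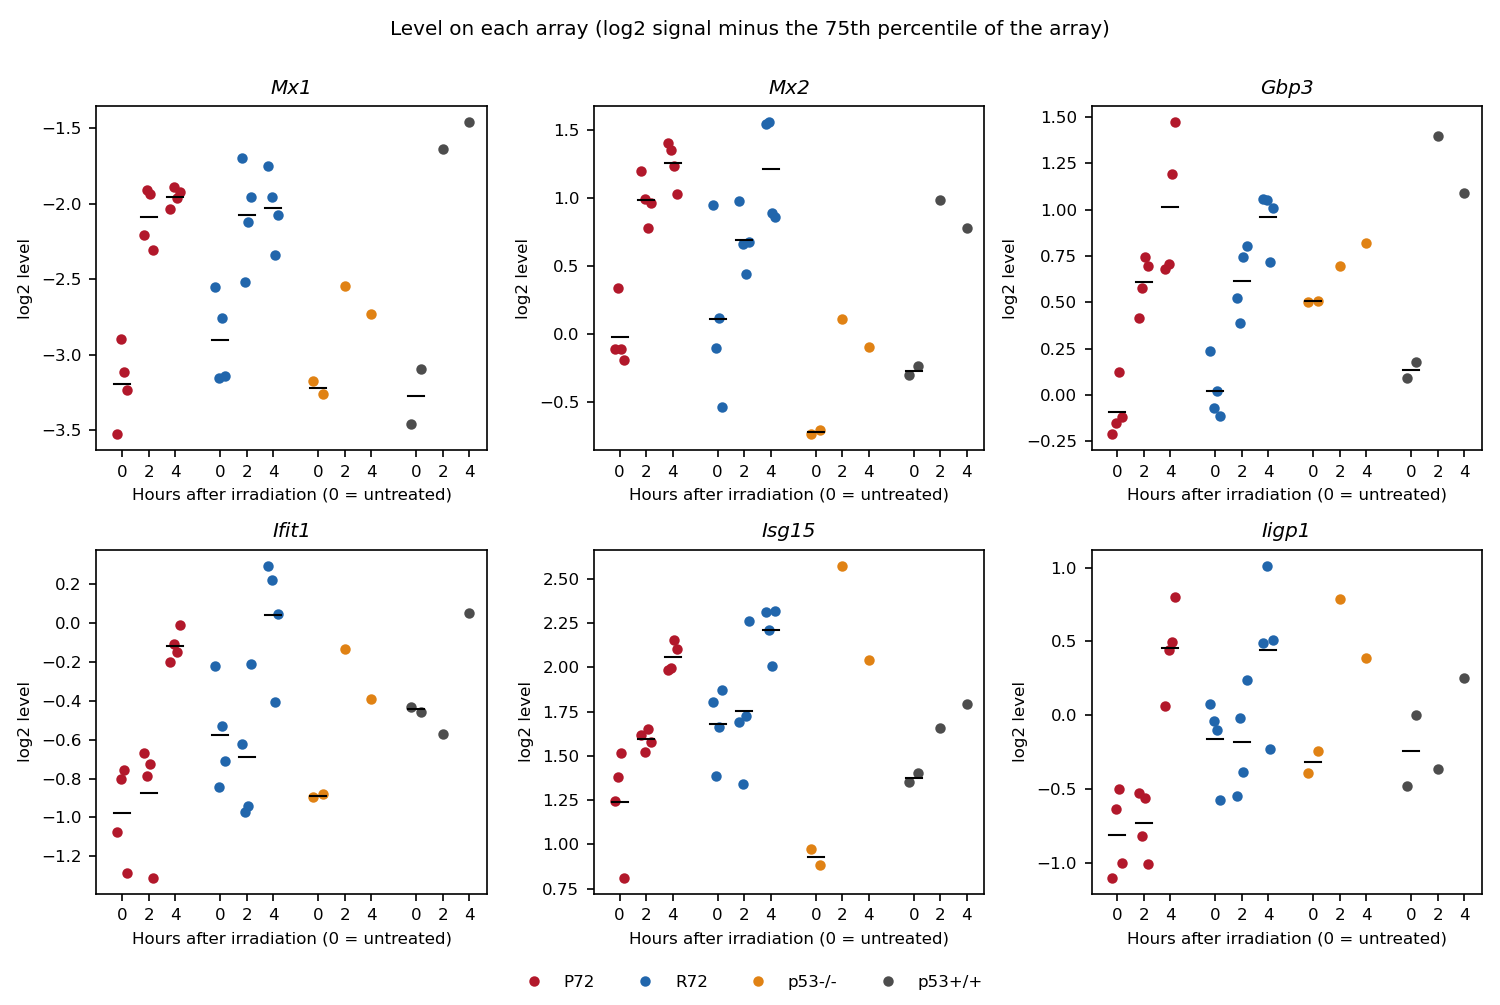
Log2 level of 6 members on each array at 0, 2 and 4 h in P72, R72, p53-/- and p53+/+ thymocytes, with a line at the mean of groups with more than 1 array. Mx1, Mx2 and Gbp3 are already high at 2 h in P72, while Ifit1 and Iigp1 are high at 4 h. Isg15 reaches its highest level, 2.57, in p53-/- thymocytes at 2 h. The 4 h rises of Ifit1 and Isg15 in P72 fall short of the threshold when arrays are centred on their median.

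Gbp3, a guanylate-binding GTPase of defence within cells, was the other early member. It read -0.21, -0.15, 0.12 and -0.12 in P72 at 0 h, 0.41, 0.58, 0.74 and 0.70 at 2 h, and 0.68, 0.71, 1.19 and 1.47 at 4 h. In R72 it read 0.24, -0.07, 0.02 and -0.11 at 0 h, 0.52, 0.39, 0.75 and 0.80 at 2 h, and 1.06, 1.05, 0.72 and 1.01 at 4 h. No irradiated array overlapped with 0 h in either genotype. The rise at 4 h was 1.10 ± 0.15 in P72 (adjusted p = 6.06e-06) and 0.94 ± 0.15 in R72 (adjusted p = 6.3e-05).

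Of the 7 interferon-induced GTPases 6 rose in P72 at 4 h and 4 in R72. Iigp1, an immunity-related GTPase that acts on parasite vacuoles, read between -1.11 and -0.50 in P72 at 0 h, -0.53, -0.82, -0.56 and -1.01 at 2 h, and 0.06, 0.44, 0.50 and 0.80 at 4 h. In R72 it read 0.08, -0.04, -0.10 and -0.57 at 0 h, -0.55, -0.02, -0.39 and 0.24 at 2 h, and 0.49, 1.01, -0.23 and 0.51 at 4 h. The P72 arrays at 4 h lay above all earlier ones, and the third R72 array at 4 h lay below 3 of the 4 R72 arrays at 0 h. Iigp1 rose by 1.26 ± 0.23 in P72 (adjusted p = 0.000132) and by 0.60 ± 0.23 in R72 (adjusted p = 0.0404). Gbp2 and Igtp rose in both, by 0.43 ± 0.09 and 0.44 ± 0.10 in P72 and by 0.32 ± 0.09 and 0.37 ± 0.10 in R72, but all 4 of these values turned negative with arrays centred on their median. Irgm1 (0.43 ± 0.10) and Tgtp1 (0.52 ± 0.16) passed the threshold in P72 and also turned negative on that scale. Ifi47 changed by 0.07 ± 0.13 in P72 and by -0.05 ± 0.13 in R72. Tgtp1 has a nearly identical neighbour, Tgtp2, and its probes may read both.

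The IFIT proteins bind foreign RNA ends and block translation, and their genes lie side by side on chromosome 19. Ifit1 read -1.08, -0.80, -0.75 and -1.29 in P72 at 0 h, -0.67, -0.79, -0.72 and -1.31 at 2 h, and -0.20, -0.11, -0.15 and -0.01 at 4 h. The R72 arrays read -0.22, -0.84, -0.53 and -0.71 at 0 h, -0.62, -0.97, -0.94 and -0.21 at 2 h, and 0.29, 0.22, -0.41 and 0.04 at 4 h. The 4 h arrays lay above the 0 h arrays without overlap in P72, while 1 R72 array at 4 h was inside the range of 0 h. It rose by 0.86 ± 0.19 in P72 (adjusted p = 0.000687) and by 0.61 ± 0.19 in R72 (adjusted p = 0.0121). Ifit3 rose by 0.86 ± 0.18 in P72 (adjusted p = 0.000509) and changed by 0.42 ± 0.18 in R72 (adjusted p = 0.0689). Ifit2 went the other way. It read -0.11, -0.27, -0.28 and -0.21 in P72 at 4 h, against 0.16, -0.00, 0.12 and 0.34 at 0 h, and fell by 0.37 on the log2 scale (± 0.11, adjusted p = 0.00541), with no overlap. With normexp background correction the change of Ifit2 in P72 was -0.24 and was not called (adjusted p = 0.0772). The second P72 array at 4 h, whose median was high after that correction, enters this change. Ifit2 in R72 changed by -0.13 ± 0.11, and a second, dimmer Ifit2 probe gave -0.06 in P72.

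The OAS family makes the oligoadenylate signal that activates RNase L, apart from the OAS-like protein Oasl1. Oas1a and Oasl1 rose in P72 at 4 h, by 0.61 ± 0.21 (adjusted p = 0.0188) and 0.61 ± 0.23 (adjusted p = 0.0268), and none of the 5 passed the threshold in R72. With arrays centred on their median both were near zero, at -0.02 and -0.01. Oas2, Oas3 and Oasl2 changed by 0.47 to 0.55 in P72 without passing the threshold. The probes of Oas3 disagreed, since the dimmer one passed it in P72 at 1.08.

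Isg15 is the ubiquitin-like modifier that interferon induces, and Usp18 the protease that removes it and damps receptor signalling. Isg15 read 1.25, 1.38, 1.52 and 0.81 in P72 at 0 h, 1.62, 1.52, 1.65 and 1.58 at 2 h, and 1.98, 2.00, 2.15 and 2.10 at 4 h. In R72 it read 1.80, 1.39, 1.66 and 1.87 at 0 h, 1.69, 1.34, 1.72 and 2.26 at 2 h, and 2.31, 2.21, 2.01 and 2.32 at 4 h. All 4 h arrays lay above all 0 h arrays in both genotypes. Isg15 rose by 0.82 ± 0.16 in P72 (adjusted p = 0.000222) and by 0.53 ± 0.16 in R72 (adjusted p = 0.0105). Usp18 changed by 0.02 ± 0.16 in P72 and by 0.08 ± 0.16 in R72. The scanner annotation (build mm7) places the Isg15 probe at chr17:44534906-44534965, whereas RefSeq has the Isg15 promoter on chromosome 4, so which transcript the probe reads is uncertain.

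Among the transcription factors Irf7, which amplifies interferon production, rose by 0.67 ± 0.16 in P72 (adjusted p = 0.00147) and changed by 0.32 ± 0.16 in R72 (adjusted p = 0.109). Irf9 rose in both, by 0.36 ± 0.11 and 0.27 ± 0.11, and turned negative in both with arrays centred on their median. Stat2 changed by 0.12 ± 0.16 and 0.03 ± 0.16. Of the 4 sensors, Ifih1 (MDA5), Dhx58 (LGP2) and Zbp1, which binds left-handed nucleic acid, rose in both genotypes, and Ddx58 (RIG-I) did not pass the threshold in either, although 1 of its dimmer probes did, at 0.40 in P72 and 0.28 in R72. Dhx58 read -0.60, -0.11, -0.26 and -0.58 in P72 at 0 h, 0.12, -0.05, -0.03 and 0.08 at 2 h, and 0.32, 0.37, 0.42 and 0.44 at 4 h. Its P72 arrays did not overlap with 0 h at either time, and it rose by 0.42 ± 0.12 at 2 h (adjusted p = 0.0288) and by 0.77 ± 0.12 at 4 h (adjusted p = 3.15e-05). In R72 Dhx58 rose by 0.51 ± 0.12 at 4 h. Zbp1 rose by 0.79 ± 0.24 in P72 and 0.75 ± 0.24 in R72, and Ifih1 by 0.62 ± 0.14 and 0.37 ± 0.14, with Ifih1 turning negative in both on the median scale.

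The count in R72 at 4 h depended on single arrays. The third R72 array at 4 h was the lowest of its group for 28 of the 32 members and the first was the highest for 21, while at 0 h the first R72 array and the second P72 array were each the highest of their group for 19. Against 0 h, 18 members were called in R72 without the third array at 4 h and 16 without the first at 0 h, but 10 without replicate 1 or 2 at 4 h or replicate 2 or 3 at 0 h, and 11 without the fourth of either time, beside 14 with all arrays.

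The ligands themselves were also measured, from a list of 19 interferon genes of which 15 were on the array and 9 were well above background on at least 4 arrays. In P72 and in R72 at 4 h 7 of these 9 rose, namely Ifna1, Ifna6, Ifna9, Ifna12, Ifna13, Ifnab and Ifnz. Their median change over the 9 was 1.80 in P72 and 1.56 in R72. Ifnab read -4.11, -4.16, -3.95 and -3.72 in P72 at 0 h, -3.51, -3.54, -3.21 and -2.56 at 2 h, and -2.35, -1.25, -1.43 and -1.59 at 4 h. In R72 Ifnab read -3.80, -4.22, -4.37 and -3.85 at 0 h, -3.01, -2.61, -3.56 and -3.83 at 2 h, and -2.23, -1.51, -2.18 and -2.34 at 4 h. Every 4 h array was above every 0 h array. Ifnab rose by 2.33 ± 0.28 in P72 and by 1.99 ± 0.28 in R72. Ifna12 was well above background on 2 of the 4 arrays at 0 h in each genotype, and Ifna1 on 2 of 4 in P72 and 1 of 4 in R72, against all 4 at 4 h, so no size of change is given for either. With arrays centred on their median 6 of the 9 still rose in P72, and in R72 7 rose and 1 fell. With normexp background correction 6 rose in P72 and none in R72, where 3 of the members were called. The R72 arrays whose medians were high after that correction enter this comparison.

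Ifnb1, Ifna2, Ifna4, Ifna11, Ifne and Ifnk were not well above background on any array. Ifng, the ligand of a separate receptor, changed by 0.24 ± 0.26 in P72 and by -0.27 ± 0.26 in R72. The interferon alpha genes are close copies of each other, so a probe may read several of them. Among the receptors, Ifngr2, a chain of the interferon gamma receptor, rose by 0.31 ± 0.11 in P72 and by 0.28 ± 0.11 in R72, and the kinase Jak1 fell by 0.28 on the log2 scale in R72. Among 7 other interferon regulatory factors 4 rose in P72 and 3 in R72, led by Irf1 (0.74 ± 0.09 and 0.50 ± 0.09) and Irf5 (1.25 ± 0.17 and 0.78 ± 0.17). Of 11 tested genes of sensing and its adaptors 6 rose in P72 and 2 in R72, with the DNA sensor Tlr9 in both. Of 8 feedback genes tested 3 rose and 2 fell in P72, and 2 rose and 2 fell in R72. Over all genes 35.8% rose and 20.8% fell in P72, and 28.9% rose and 16% fell in R72. The feedback counts, and that of the sensing genes in R72, do not stand out from these shares. Socs1 and Socs3, which shut down JAK signalling, rose in both genotypes, Socs3 by 1.87 ± 0.18 in P72 and 1.67 ± 0.18 in R72. The phosphatases Ptpn6 and Ptpn2 fell in both, Ptpn6 by 0.81 and 0.76 on the log2 scale and Ptpn2 by 0.27 and 0.30.

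**Figure D3:**
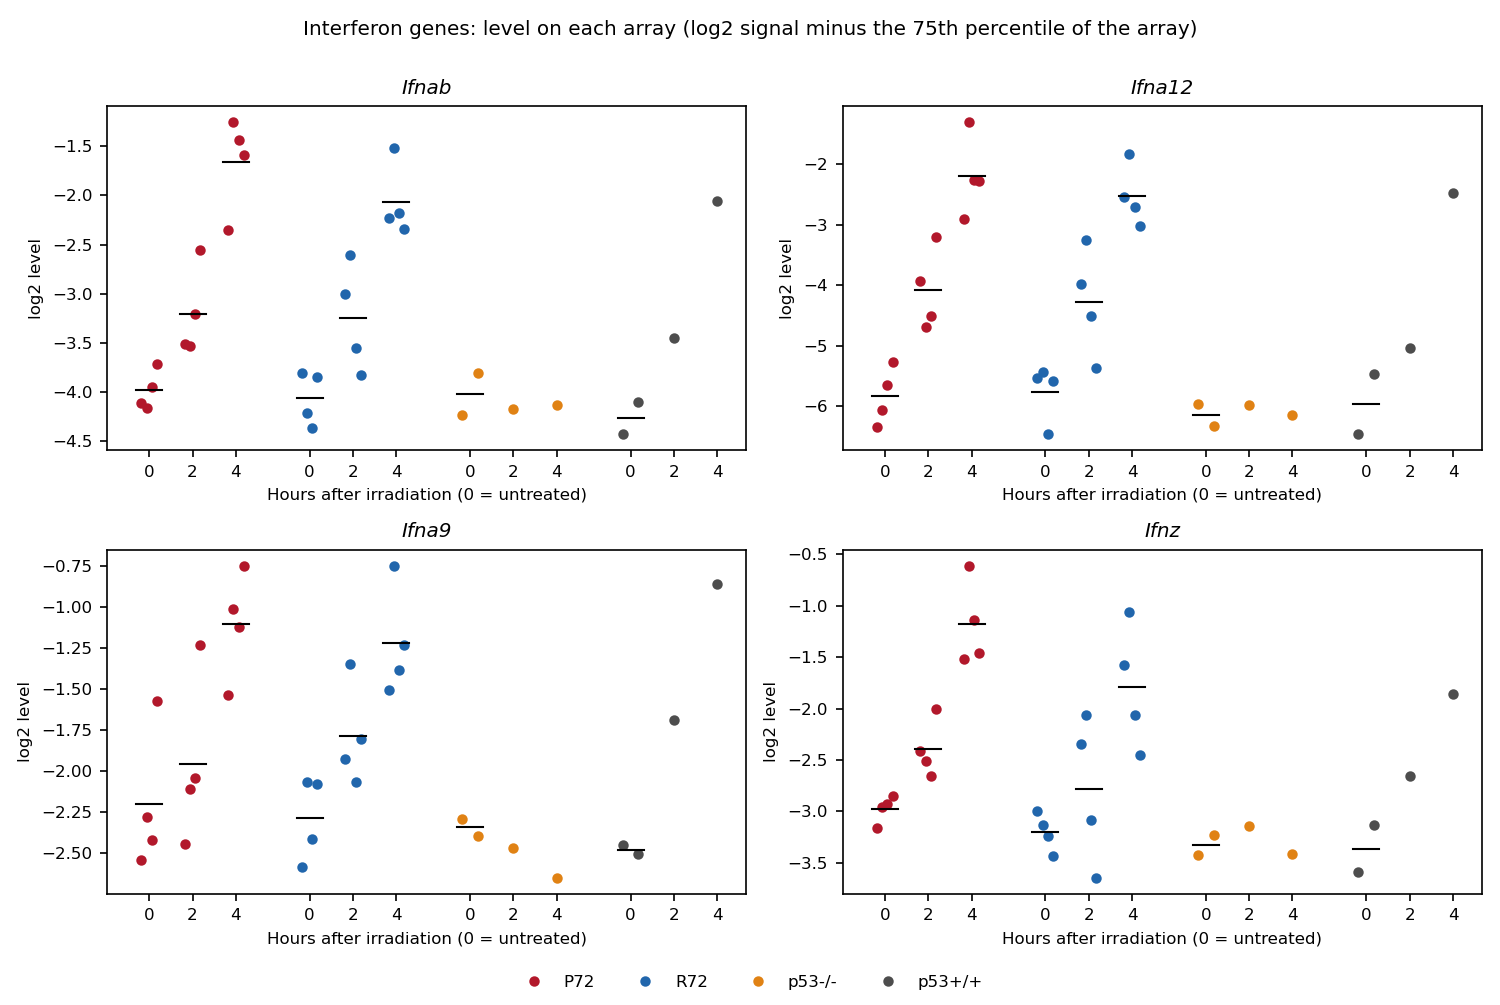
Log2 level of 4 interferon genes on each array at 0, 2 and 4 h in P72, R72, p53-/- and p53+/+ thymocytes, with a line at the mean of groups with more than 1 array. The 4 h arrays of P72, R72 and p53+/+ lie above their 0 h arrays for Ifnab and Ifna12, and the p53-/- arrays stay between -4.23 and -3.81 for Ifnab.

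Markers of other cell types moved at 4 h as well. Over all genes 35.8% rose and 20.8% fell in P72 at that time, and 28.9% rose and 16% fell in R72. A count of markers near these shares does not set them apart from genes in general. Of 10 macrophage markers 7 rose in P72 and 4 in R72, and their summed level was 78.9 to 105 times the 75th percentile in P72 at 4 h against 29.3 to 55.9 at 0 h, and 67.8 to 107 in R72 at 4 h against 48.4 to 72.2 at 0 h. Dendritic cell markers rose for 6 of 7 tested in each genotype, with sums of 42.4 to 53.5 in P72 at 4 h against 17.9 to 30.7 at 0 h, and of 25.1 to 49.2 in R72 at 4 h against 19.1 to 25.2 at 0 h. All 7 neutrophil markers rose in P72 and 1 of 7 in R72, and 6 of 8 markers of thymic epithelium rose in P72 and 3 in R72. The epithelial sum was 31.9 to 41.3 in P72 at 4 h against 5.43 to 13.6 at 0 h, and 30.6 to 51.6 in R72 at 4 h against 16.1 to 19.9 at 0 h. Of 8 markers of plasmacytoid dendritic cells, the main makers of interferon alpha, 1 rose in P72, and 1 rose and 1 fell in R72. Their sums were 90.7 to 102 in P72 at 4 h against 95.1 to 109 at 0 h. In R72 they were 84.5 to 106 at 4 h against 90.0 to 113 at 0 h. The 8 were Siglech, Tcf4, Pacsin1, Klk1, Ccr9, Irf8, Cox6a2 and Runx2. Which cells expressed them was not tested, so the sum is not a measure of plasmacytoid cell content. Of 10 markers of double positive thymocytes 1 rose and 3 fell in P72, and 2 rose and 2 fell in R72. Of 7 B cell markers 2 rose and 1 fell in P72, and 1 rose and 1 fell in R72. The part of these cells in the members' changes was not tested.

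P72 and R72 thymocytes did not differ past the threshold for any of the 32 members at 0, 2 or 4 h with the main settings. Igtp passed it at 2 h or at 4 h under some alternatives, given with its values below. At 0 h 25 members had the lower mean in P72 and 7 the higher, with a median difference of -0.22 beside -0.00 over all genes, and 11 had an unadjusted p under 0.05. Past the adjusted threshold, 0.326% of all genes were higher and 0.599% lower in P72 at 0 h, 0.657% and 0.628% at 2 h, and 0.672% and 0.584% at 4 h. The median difference of the members was 0.01 at 2 h and 0.00 at 4 h, with 5 and 4 members at an unadjusted p under 0.05. The share of all genes under that unadjusted cut is not given here, so these counts do not show an excess among the members.

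The smallest unadjusted p-values at 0 h were those of Tgtp1, Igtp, Iigp1 and Isg15. Tgtp1 read 2.40, 2.79, 2.64 and 2.46 in P72 and between 2.90 and 3.32 in R72, without overlap, a difference of -0.50 ± 0.16 (adjusted p = 0.177). Igtp went the opposite way, at 4.35, 4.73, 4.79 and 4.54 in P72 and 4.34, 4.21, 4.36 and 4.29 in R72, a difference of 0.30 ± 0.10 (adjusted p = 0.24). Igtp kept that sign later. It read 4.66, 4.68, 4.82 and 5.09 in P72 at 2 h against 4.44, 4.30, 4.25 and 4.58 in R72, and 5.05, 5.01, 5.12 and 5.00 at 4 h against 4.74, 4.77, 4.52 and 4.67. The P72 arrays lay above the R72 arrays at both later times, with differences of 0.42 ± 0.10 at 2 h (adjusted p = 0.0516) and 0.37 ± 0.10 at 4 h (adjusted p = 0.091). The 2 h difference was called with the replicate number as a block (adjusted p = 0.049), with slide as a random block (0.0436), when every array had to be above background (0.0331), with the mean of all probes (0.0483), with all 32 arrays in the fit (0.0318) and without the fourth R72 array at 2 h (0.0427). The 4 h difference was called with quantile normalization (0.0254) and in limma on the authors' deposited value table (0.0244). Igtp, Irgm1, Tgtp1, Ifi47, Dhx58 and Ifi35 all lie on chromosome 11, and whether position bears on these differences was not tested.

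**Figure D4:**
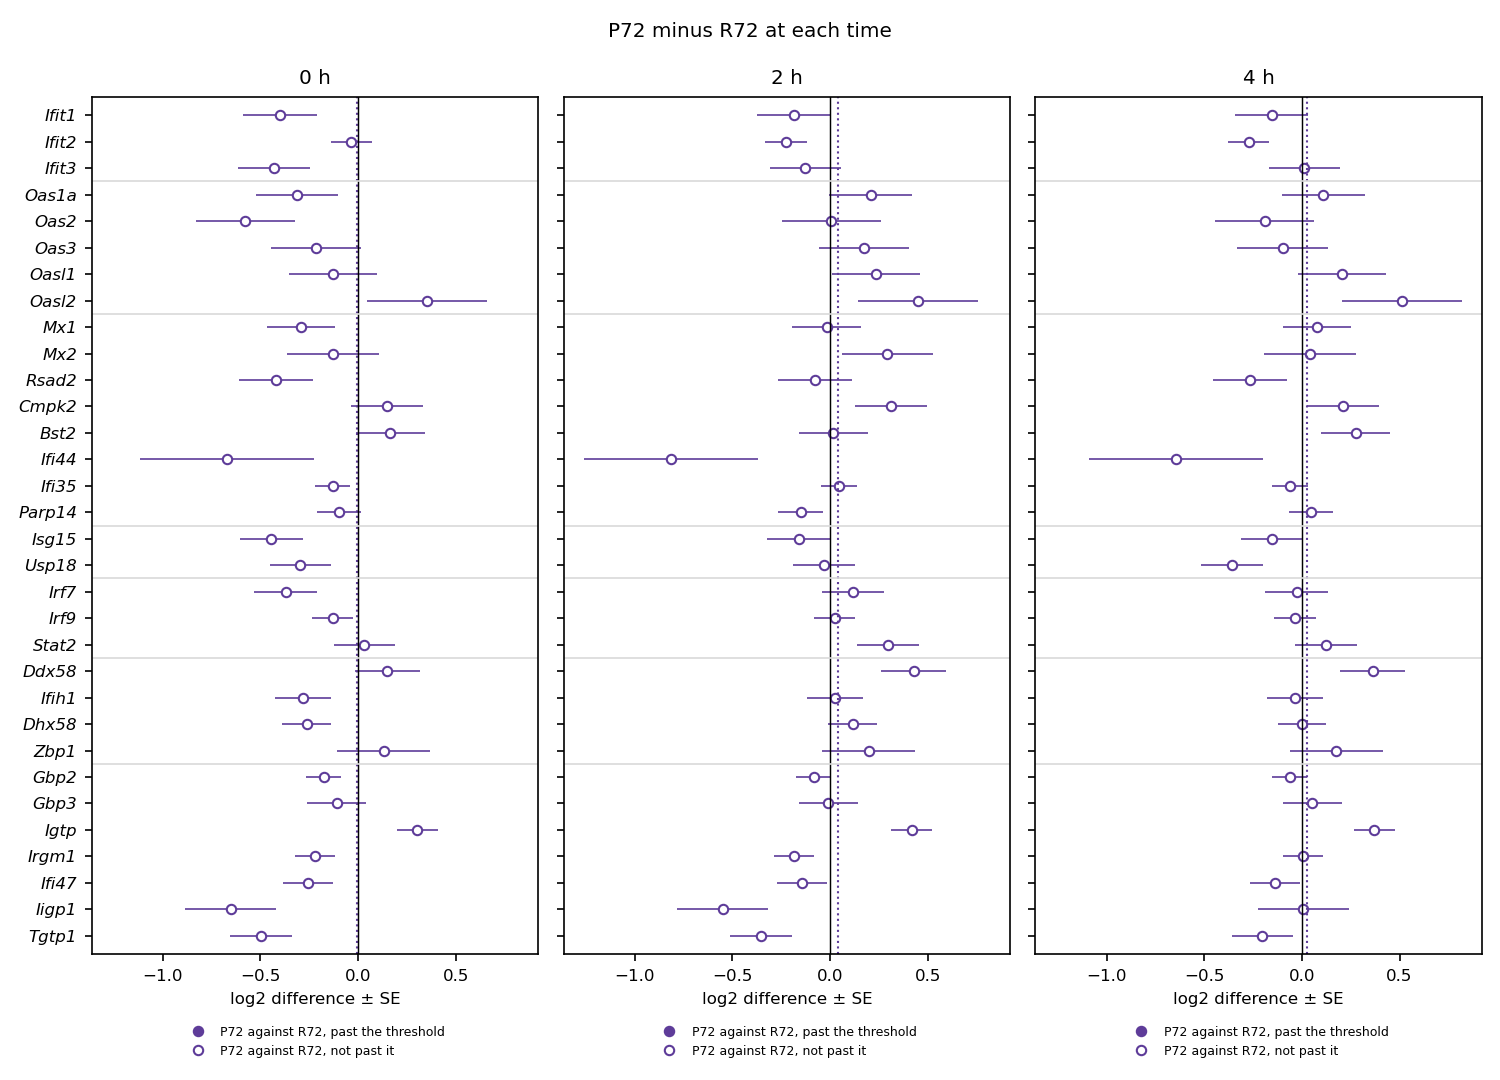
Log2 difference ± SE of P72 minus R72 for the 32 members at 0, 2 and 4 h, 4 arrays per group, with dotted lines at the median of all genes. No member passes the limma threshold with the settings shown. At 0 h 25 of the 32 points lie left of zero, and at 2 h and 4 h 17 lie right of it.

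The response to radiation did not differ between P72 and R72 past the threshold for any member either. The change at 2 h was larger in P72 than in R72 for 28 members and the change at 4 h for 30, with median differences of 0.20 and 0.16 beside 0.04 and 0.01 over all genes. At 2 h 0.00487% of all genes had a larger change in P72 past the threshold and 0% a smaller one, and at 4 h 0% and 0%. By limma 2 members had an unadjusted p under 0.05 at 2 h, Irf7 and Dhx58, and 0 at 4 h, again without the share of all genes under that cut. These differences use the same 0 h arrays as the comparison of genotypes at 0 h, so the lower P72 levels there enter all of them.

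In p53-/- thymocytes 1 member, Isg15, rose after irradiation, and in p53+/+ thymocytes 6 rose, with 2 h and 4 h averaged. No member fell. Over all genes 0.74% rose and 0.326% fell in p53-/-, and 13.2% rose and 10.3% fell in p53+/+. The median change of the members was 0.30 in p53-/- and 0.18 in p53+/+, beside -0.00 and 0.09 over all genes. The change was positive for 28 of the 32 members in p53-/- and for 23 in p53+/+. The count past the threshold therefore does not show a weaker response of the members in p53-/-. Each irradiated time is 1 array, all irradiated p53-/- arrays share a slide and all irradiated p53+/+ arrays share another. Among the irradiated arrays alone the genotype and the slide therefore coincide. Both slides also hold 1 untreated array of each genotype, and counts with slide as a fixed block are given below. Within the slide of each genotype, which also holds 1 untreated array of it, Isg15 was 1.43 higher after irradiation in p53-/-, and Mx1 was 1.91 higher in p53+/+. The count in p53+/+ fell to 2 without its array at 4 h or its untreated replicate 1. With arrays centred on their median all genes shifted by -0.40 in p53+/+, where 3 members were then higher and 5 lower, and by -0.03 in p53-/-, where Isg15 was still the only one called.

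The 6 genes in p53+/+ were Mx1, Mx2, Gbp3, Dhx58, Parp14 and Gbp2, all of which had also risen in P72 and R72 by 4 h. Mx1 read -2.55 and -2.73 on the irradiated p53-/- arrays at 2 h and 4 h, against -3.26 and -3.18 untreated. In p53+/+ it read -1.64 and -1.46 on the irradiated arrays, against -3.46 and -3.09 untreated. Mx1 changed by 0.58 ± 0.24 in p53-/- (adjusted p = 0.307) and rose 3.32-fold in p53+/+ (1.73 ± 0.24, adjusted p = 3.04e-05). Irradiated p53-/- thymocytes held less Mx1 than irradiated p53+/+ ones, by -1.09 ± 0.24 (adjusted p = 0.00372), and the difference of responses was -1.15 ± 0.34 (adjusted p = 0.052).

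Gbp3 read 0.69 and 0.82 in irradiated p53-/- thymocytes against 0.51 and 0.50 untreated, and 1.40 and 1.09 in irradiated p53+/+ against 0.09 and 0.18 untreated. It changed by 0.25 ± 0.20 in p53-/- and rose by 1.11 ± 0.20 in p53+/+ (adjusted p = 0.000568), with a difference of responses of -0.86 ± 0.29 (adjusted p = 0.0843). Mx2 changed by 0.73 ± 0.32 in p53-/- and rose by 1.15 ± 0.32 in p53+/+. Between the irradiated genotypes Mx2 differed by -0.88 ± 0.32 (adjusted p = 0.0506) and Gbp3 by -0.49 ± 0.20 (adjusted p = 0.0888), neither past the threshold.

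Isg15 behaved otherwise. It read 2.57 at 2 h and 2.04 at 4 h in p53-/- thymocytes, against 0.88 and 0.98 untreated, and 1.66 and 1.79 in p53+/+ against 1.35 and 1.40 untreated. It rose by 1.38 ± 0.22 in p53-/- (adjusted p = 0.00219), a 2.60-fold rise, and changed by 0.35 ± 0.22 in p53+/+. The response in p53-/- exceeded that in p53+/+ by 1.03 ± 0.30 (adjusted p = 0.0495), the only member of the 32 called there, where 2.26% of all genes had a larger response in p53-/- and 3.15% a smaller one. This call was lost when any array other than that of p53-/- at 4 h was left out, with adjusted p from 0.0683 to 0.291, and the rise in p53-/- was not called without its array at 2 h (adjusted p = 0.105) or without its untreated replicate 1 (adjusted p = 0.0568). With arrays centred on their median, which moved all genes by 0.37 here, 5 members had a larger response in p53-/- and none a smaller one.

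Between irradiated p53-/- and p53+/+ thymocytes 2 members were higher and 1 lower, beside 8.7% and 13.1% of all genes. On the median scale, which moved all genes by 0.38 in this comparison, 8 members were higher and 1, Mx1, was lower. Besides Mx1, the members called with the main settings were Ifit2 and Cmpk2, a mitochondrial nucleotide kinase. Ifit2 read 0.35 and 0.46 in p53-/- against -0.06 and -0.01 in p53+/+ (0.44 ± 0.14, adjusted p = 0.031). Cmpk2 read -1.32 and -1.54 against -2.37 and -1.93 (0.72 ± 0.25, adjusted p = 0.0453). With the mean of all probes of a gene 0 members were higher and 1 was lower. Without the p53+/+ array at 4 h none of the 3 was called, and without either array at 2 h Mx1 alone was. Untreated p53-/- and p53+/+ thymocytes differed past the threshold in no member with the main settings, where 0.365% of all genes were higher and 0.346% lower. The widest untreated difference was that of Rsad2, which inhibits the budding of virions, at -0.08 and -0.02 in p53-/- against -1.08 and -0.89 in p53+/+ (0.93 ± 0.26, adjusted p = 0.0987). Rsad2 was called there with slide as a random block (adjusted p = 0.0421) and with scan date as a fixed block (adjusted p = 0.037).

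**Figure D5:**
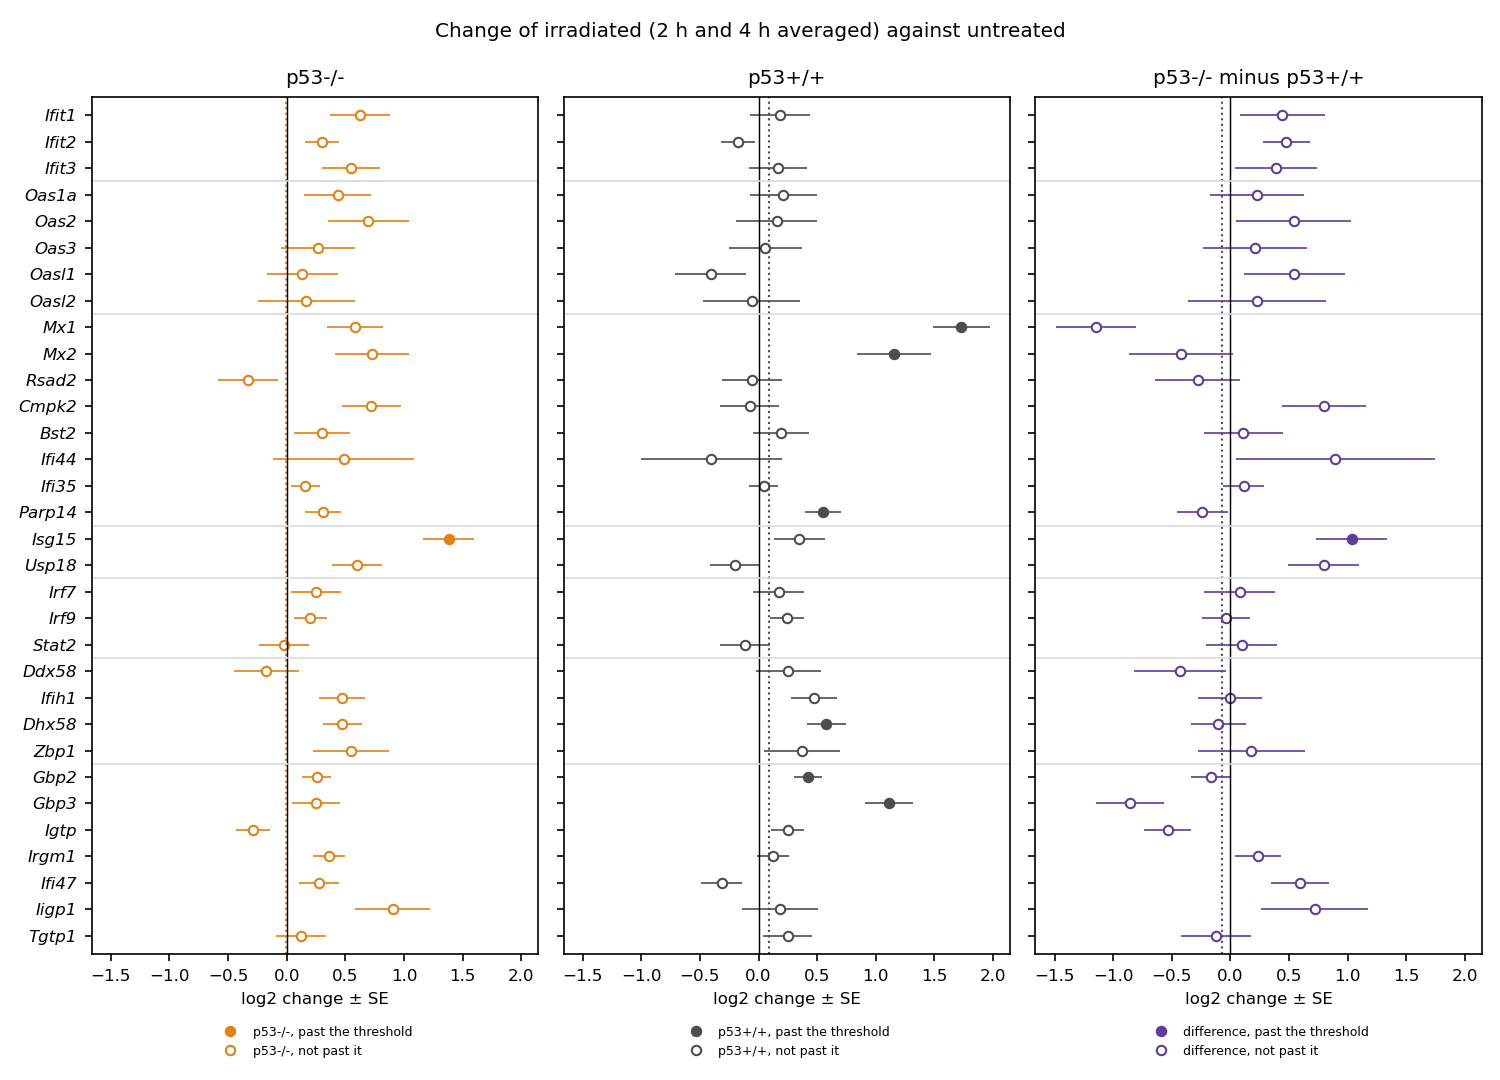
Log2 change ± SE of the 32 members in irradiated against untreated p53-/- and p53+/+ thymocytes, 2 arrays on each side, and the difference of these changes, with filled points past the limma threshold and dotted lines at the median of all genes. Isg15 is the filled point in p53-/- and in the difference, and Mx1, Mx2, Gbp3, Dhx58, Parp14 and Gbp2 are filled in p53+/+. Parp14, Dhx58 and Gbp2 fall short of the threshold when arrays are centred on their median. The SE come from the fit of all 32 arrays, mostly from the spread of the P72 and R72 arrays.

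Among the interferon genes, of the 9 tested none rose past the threshold in p53-/- and 6 rose in p53+/+, with median changes of 0.04 and 1.20. Ifnab read -4.17 at 2 h and -4.13 at 4 h in p53-/- thymocytes, against -3.81 and -4.23 untreated, and -3.45 and -2.06 in p53+/+, against -4.43 and -4.11 untreated. It was lower in irradiated p53-/- than in irradiated p53+/+ thymocytes by -1.40 ± 0.38 (adjusted p = 0.0137), as were Ifna9, Ifna12 and Ifna13, with Ifna12 well above background on both irradiated p53-/- arrays and on 1 of the 2 irradiated p53+/+ arrays. The difference of responses did not pass the threshold for any of them, at -1.64 ± 0.54 for Ifnab (adjusted p = 0.0789). In p53+/+ 3 of the 9 rose with arrays centred on their median and 0 with normexp background correction. Macrophage markers summed to 42.1 at 2 h and 51.4 at 4 h in p53-/-, against 54.4 and 55.0 untreated, and to 35.4 at 2 h and 72.8 at 4 h in p53+/+, against 41.5 and 41.6 untreated. Of the 10 none was called in p53-/- and 1 rose in p53+/+. Over all genes 0.74% rose and 0.326% fell after irradiation in p53-/-, and 13.2% rose and 10.3% fell in p53+/+. Of 7 neutrophil markers none rose in p53-/- and 5 rose in p53+/+, and of 8 epithelial markers none rose in p53-/- and 2 rose in p53+/+. Of 8 markers of plasmacytoid dendritic cells none fell in p53-/- and 4 fell in p53+/+, and which cells expressed these was not tested. The part of any of these cell types in the p53 comparisons was not tested either.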

How the data were processed

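Thymocyte RNA was hybridised to 32 one-colour Agilent arrays labelled with Cy3. The authors extracted the scans with Agilent Feature Extraction 9.5.3 per the submitters' processing notes, or 9.5.3.1 per the file headers, and deposited background-subtracted fluorescence intensities (gProcessedSignal), which were used here. The authors also deposited a table of log2 values, whose making is not given in the sources used here and which served as an alternative.

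From the intensities, log2 values minus each array's 75th percentile were computed. Control spots (1639) and outlier-flagged values (0.223%) were left out, spots of a probe were averaged, and a probe was kept where at least 4 of the 32 arrays had it well above background. The probe with the highest mean stands for its gene. Group means were contrasted in limma 3.58.1 (R 4.3.3; two-sided, Benjamini-Hochberg over all genes, threshold 0.05), with 24 arrays for P72 and R72 and all 32 for p53-/- and p53+/+. In the p53 fit the single arrays per time are assumed to vary like the other groups, and 2 h and 4 h were averaged. The p-values and standard errors rest on the spread between arrays within groups, which in the p53 fit comes mostly from the P72 and R72 arrays. Python 3.11.15 with pandas 2.3.3, numpy 2.4.6 and matplotlib 3.10.9 read the files, searched the promoters and drew the figures. The fit was tested on simulated data with 200 of 20548 genes changed, where 62.7% of 2-fold and 25.4% of 1.5-fold changes were recovered for P72 at 4 h against 0 h, and 46.3% of 2-fold changes between irradiated p53-/- and p53+/+. The simulated noise was independent between arrays. In the data far more genes were called, 35.8% higher and 20.8% lower in P72 at 4 h, and same-numbered arrays deviated together. These rates therefore do not give the share of real changes recovered. The number of arrays limits the precision.

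The members and gene lists were chosen with earlier results of these data known. Array values were to be given for members called at 2 or 4 h in P72 or R72, by role and size of change, then for those called in the other comparisons, and the rest by range. From the other lists, up to 4 genes with the smallest p and defining genes were to be named. The second probes of Mx1, Ifit2, Oas3, Ifi44 and Ddx58, the untreated Rsad2 difference, the differences of Tgtp1 and Igtp between P72 and R72, Mx2 and Gbp3 between irradiated p53 genotypes, and Jak1, Ptpn6, Ptpn2, Tlr9, Irf5 and Ifng were singled out after their values were seen. Alternatives were the background correction, scaling, the authors' table, the filter, the probe rule, blocks for replicate, slide and scan date, the arrays in the fit, and leaving out each array. One gene of the receptor and signalling list, and that list's count, are not reported here. No genome of the probes' build (mm7) was used here.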

Additional observations from a re-analysis of the deposited data

Results flagged for a closer look

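In groups of 4 arrays, 5 of 192 member and group combinations had 1 array far from the other 3 by Dixon's test at its 95% critical value, and chance alone gives about 1 in 20. Mx2 read 0.335 on the second P72 array at 0 h, above the other 3. Bst2 read 3.25 on that same array, below the other 3. Irf9 read 1.88 on the first P72 array at 4 h, below the others of its group. Oas2 read 0.501 on the first R72 array at 2 h, above the others. Gbp3 read 0.72 on the third R72 array at 4 h, below the others.

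Isg15 had a larger response to radiation in p53-/- than in p53+/+ thymocytes, by 1.03 on the log2 scale, in a test of the difference of responses in limma (adjusted p = 0.0495). Both irradiated p53-/- arrays lay above both irradiated p53+/+ arrays for Isg15, and both untreated p53-/- arrays lay below both untreated p53+/+ arrays. Among the irradiated arrays each genotype lies on its own slide, but both slides also hold an untreated array of each genotype. The call ended with slide as a fixed block.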

How the results depend on the processing

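The single member called for P72 against R72 was Igtp throughout, and that between untreated p53 genotypes was Rsad2. Values below are the number of the 32 members called, and the cause of each move was not tested. The arrays whose medians were high after normexp correction, given above, enter its counts. With normexp background correction it was 1 at 2 h, 11 at 4 h and 3 between 2 h and 4 h in P72, 0, 3 and 1 for the same steps in R72, 2 in p53+/+, 1 between irradiated p53-/- and p53+/+, and 0 for the difference of their responses. With arrays centred on their median it was 12 at 4 h and 4 between 2 h and 4 h in P72, 8 and 1 in R72, 9 between the irradiated p53 genotypes and 5 for the difference of responses. Quantile normalization gave 1 for P72 against R72 at 4 h and 0 for the p53 difference of responses, and the authors' table gave 1, 8 between the irradiated p53 genotypes and 6. With no filter it was 5 between 2 h and 4 h in R72 and 0 for the p53 difference of responses. Requiring every array above background gave 1 for P72 against R72 at 2 h, 5 between the irradiated p53 genotypes and 2 for the difference of responses, and the mean of all probes gave 1 and 1 for the first 2 of these. Slide as a random block gave 1 for P72 against R72 at 2 h, 1 between untreated p53 genotypes and 2 for the difference of responses, and as a fixed block 1 between the irradiated p53 genotypes and 0 for the difference. Scan date as a block gave 17 between 2 h and 4 h in R72, 1 between untreated p53 genotypes, 7 between irradiated ones and 3 for the difference. Another set of arrays in the fit gave 1 for P72 against R72 at 2 h, 0 in p53-/-, 8 between the irradiated p53 genotypes and 2 for the difference.

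Centring on the median turned 21 of the 76 member values called with the main settings: at 4 h in P72 Oas1a to -0.0152, Oasl1 to -0.0150, Parp14 to -0.0624, Irf9 to -0.261, Ifih1 to -0.00706, Gbp2 to -0.191, Igtp to -0.181, Irgm1 to -0.192 and Tgtp1 to -0.105, between 2 h and 4 h in P72 Parp14 to -0.0551, Irf9 to -0.0975, Ifih1 to -0.0345, Dhx58 to -0.0561, Gbp2 to -0.127 and Gbp3 to -0.00789, at 4 h in R72 Parp14 to -0.0600, Irf9 to -0.211, Ifih1 to -0.106, Gbp2 to -0.159 and Igtp to -0.103, and between 2 h and 4 h in R72 Gbp2 to -0.0944. No other alternative turned one. Over the alternatives, left-out arrays not counted, 744 of 901 recomputed values kept both direction and call and 136 the direction only. With 1 array left out, 429 of 568 kept both and 139 the direction only.

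Leaving out 1 array gave 3 to 5, 19 to 23 and 7 to 11 for the 3 steps in P72, 2 to 3, 10 to 18 and 2 to 15 in R72, 0 to 1 for P72 against R72 at 2 h, 2 to 6 in p53+/+, 0 to 1 in p53-/-, 0 to 2 between the irradiated p53 genotypes and 0 to 1 for the difference of responses, with 0 throughout for the other comparisons. Same-numbered arrays of a genotype deviated together (r from 0.0685 to 0.527, median 0.199), against a median of -0.0594 for differently numbered ones. Same-numbered arrays of different genotypes did not all do so (r from -0.272 to 0.535). The main fit nevertheless held no block, because the labels do not say what a shared number marks. The replicate block gave 1 for P72 against R72 at 2 h and ended no call among 65 called member values. It raised the count at 4 h from 21 to 24 in P72 and from 14 to 15 in R72. Between 2 h and 4 h it raised the count from 14 to 15 in P72 and from 10 to 12 in R72. The call of Isg15 for the p53 difference of responses ended with normexp, quantile normalization, no filter, the mean of probes and slide as a fixed block, with adjusted p of 0.0197 to 0.166 over all alternatives.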
